A study of Mus musculus with 6 samples.

Results

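The 9 genes described here carry the unfolded protein response, by which a cell answers misfolded protein in the endoplasmic reticulum (ER): the sensors Ern1, Eif2ak3 and Atf6, the transcription factors Xbp1, Atf4 and Ddit3, the phosphatase subunits Ppp1r15a and Ppp1r15b, and the ER membrane protein Herpud1. They were taken by gene symbol and Ensembl identifier from the 60193 entries of the deposited matrix, in which they occupy 10 rows, because Ddit3 is listed a second time as an entry of 105 bases. The rule for the rows used symbols and identifiers, and the genes were proposed with earlier results of these data known. Metaphase II (MII) oocytes of ICR mice aged 42 to 45 weeks were compared in 2 groups of 3 libraries. Mice of this age served the study as a natural ageing model, and its methods name no transgene. For the IVM group, oocytes at the germinal vesicle stage were taken from the ovary after priming with pregnant mare's serum gonadotropin (PMSG) and matured in culture for 12 h, and for the IVO group, oocytes that had matured in the animal were collected from the oviduct 14 h after human chorionic gonadotropin (hCG), given after PMSG. Cumulus cells were removed by pipette before culture in IVM and with hyaluronidase after collection in IVO, so the groups also differ in this. Each library pooled 20 oocytes from 3 mice, so a value is a mean over animals and not the level of a single oocyte. The values are FPKM, fragment numbers divided by transcript length and library size.

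The response has 3 arms, each started by a sensor in the ER membrane. IRE1, encoded by Ern1, splices a short intron out of Xbp1 mRNA in the cytoplasm. PERK, encoded by Eif2ak3, phosphorylates the translation factor eIF2, which lowers translation in general while Atf4 mRNA is translated more, and ATF6 is cut in the Golgi to release a transcription factor. A fully grown oocyte is nearly silent in transcription until after fertilization, so its mRNA levels depend largely on storage, polyadenylation and decay of transcripts made earlier.

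The sequences that mark these arms are shown because Xbp1 splicing is the readout of IRE1 and the promoter elements are those through which ATF6 and ATF4 act. In the Xbp1 sequence, capitals mark the 26 bases that are present in the longer of 2 annotated transcripts (2134 and 1116 bases) and missing from the other, which has the length listed in the matrix. They are the intron that IRE1 removes, in exon 4 of 5 at chr11:5474282-5474307 on the plus strand of GRCm39. Flanking bases repeat, so the same difference could be placed at 7 positions. FPKM per gene sum over both forms and do not show whether this intron was removed.
Xbp1 IRE1 intron: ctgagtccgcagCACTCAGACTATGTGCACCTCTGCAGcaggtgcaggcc

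The next windows come from the RefSeq promoter table (GRCm38.p6), which holds the 250 bases before and the 50 bases after each gene's start and gave a promoter for 7 of the 9 genes. Capitals mark a match to a short DNA element on either strand. The ER stress response element (ERSE), bound by ATF6 with NF-Y, is CCAAT followed after 9 bases by CCACG and was found in 39 of 32851 promoters (0.119%). ERSE-II, which is ATTGG, any base and CCACG, was found in 12 (0.0365%), the ATF4 element CARE (TTGCATCA) in 294 (0.895%), and the cyclic AMP element CRE (TGACGTCA) in 588 (1.79%). ERSE and ERSE-II share the letters CCACG. The windows lie at chr8:94386368-94386396 and chr8:94386306-94386335 on the plus strand for Herpud1, at chr7:45526262-45526291 on the minus strand for Ppp1r15a, at chr2:34772020-34772048 on the plus strand for Hspa5, at chr10:75893237-75893265 on the plus strand for Derl3 and at chr15:88819515-88819543 on the plus strand for Creld2.
Herpud1 ERSE-II: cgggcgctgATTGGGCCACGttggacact
Herpud1 CARE: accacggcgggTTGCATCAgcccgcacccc
Ppp1r15a CRE: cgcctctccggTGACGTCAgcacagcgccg
Hspa5 ERSE: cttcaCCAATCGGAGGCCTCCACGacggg
Derl3 ERSE: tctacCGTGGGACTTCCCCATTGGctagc
Creld2 ERSE: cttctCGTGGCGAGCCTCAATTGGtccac
Among the 7 members with a promoter, only Herpud1 and Ppp1r15a held a match to any of these elements or to UPRE (TGACGTGG, in 0.676% of promoters, sharing TGACGT with CRE). A match is a description of letters in this window and not evidence of binding.

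Atf4, the transcription factor whose translation rises when eIF2 is phosphorylated, was lower in the IVO group and was the 1 called member. Of the 10 rows, 8 (7 genes) had a mean of at least 1 FPKM over the 6 libraries and were tested by limma on log2(FPKM + 1), and the p-values of all 18818 tested genes were adjusted together (Benjamini-Hochberg). A gene was called a differentially expressed gene (DEG) at an absolute log2 fold change (log2FC, IVO over IVM) of at least 1 and an adjusted p-value under 0.05. The 1 member lower in IVO stood beside 17.9% of all tested genes called lower, and the 0 members higher beside 0.606% called higher, with 18.5% called in either direction. The median log2FC was -0.15 over the 8 member rows, -0.10 without the short Ddit3 entry, and -0.30 over all tested genes. Of the 13154 tested Ensembl genes alone, the kind of entry the members are, 15.3% were called (1926 lower, 82 higher). Their median log2FC was -0.18. For 2 member rows, both lower in IVO, the IVM and IVO values did not overlap, and of all tested genes 42.2% were so separated, 32.6% lower and 9.62% higher. Counting by the adjusted p-value alone, Atf4 was again the 1 member, beside 23.4% of all tested genes (21.5% lower, 1.87% higher). With median-ratio scaling 0 members were called by limma, beside 13.2% of all genes (11.2% lower, 2.06% higher), and with each library's trend with gene length removed 0 were called, beside 11.0% (8.03% lower, 2.96% higher). At an unadjusted limma p-value under 0.05 the members counted 3 lower and 0 higher on the deposited scale (Atf4, Ppp1r15b and the short Ddit3 entry), beside 31.4% of all tested genes lower and 5.56% higher. Under each of these alternatives 1 was lower (Atf4) and 2 were higher (Ern1 and Ppp1r15a), beside 22.1% lower and 16.0% higher with median-ratio scaling and 18.0% lower and 17.5% higher with the length trend removed. On the deposited scale, a fit of Ensembl genes only counted 3689 of 13154 genes lower and 957 higher at this p-value.

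**Figure D1:**
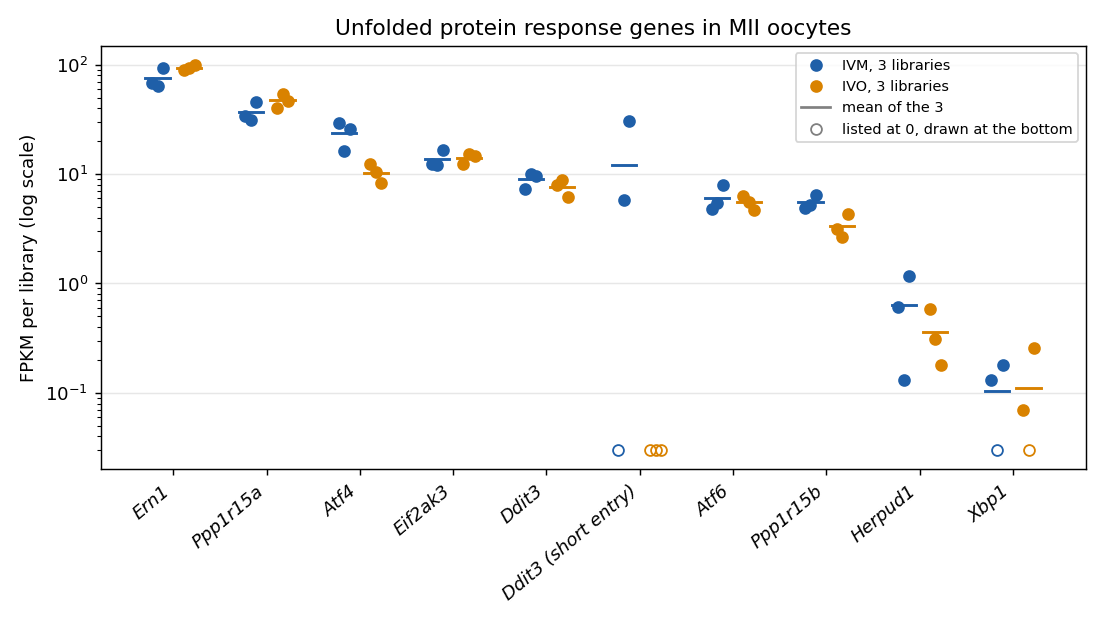
FPKM of the 9 genes in each of the 3 IVM and 3 IVO libraries on a log axis, with 1 point per library, a bar for the group mean and open symbols for values listed at 0. The Atf4 and Ppp1r15b points of the 2 groups are apart, while Xbp1 lies at or below 0.26 FPKM in every library.

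Among the sensors, Ern1 had the highest level per length of all members in both groups. Ern1 (chr11:106283818-106378686, minus strand, GRCm39 as for the genes that follow) was at 68.45, 63.50 and 93.98 FPKM in the IVM libraries and at 89.02, 93.68 and 98.77 in the IVO libraries. The highest IVM library lay among the IVO libraries, so the groups overlapped. The mean was 75.3 ± 16.4 FPKM in the IVM and 93.8 ± 4.88 FPKM in the IVO group (SD, n = 3), a log2FC of 0.33 with an SE of 0.20 and a 95% interval of -0.14 to 0.81 (limma adjusted p = 0.28).

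Eif2ak3, the kinase PERK (chr6:70821461-70882235, plus strand), was at 12.35, 12.17 and 16.54 FPKM in IVM and at 12.25, 15.27 and 14.55 in IVO. The ranges of the groups lay almost on each other. The log2FC was 0.04, with an SE of 0.21, an interval of -0.45 to 0.53 and a limma adjusted p of 0.914. Atf6 (chr1:170532026-170696208, minus strand) was at 4.76, 5.42 and 7.94 FPKM in IVM and at 6.27, 5.50 and 4.74 in IVO, again overlapping. Its log2FC was -0.10, with an interval of -0.67 to 0.48 (limma adjusted p = 0.815), and it turned positive, at 0.18, under median-ratio scaling. None of the 3 sensors was called under any alternative run. Under quantile normalization, the log2FC of Ern1 was 0.82 (limma adjusted p = 0.0312), under the fold threshold.

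Of the transcription factors, Atf4 (chr15:80139372-80141745, plus strand) was at 29.36, 16.33 and 25.69 FPKM in IVM and at 12.31, 10.39 and 8.23 in IVO. Every IVM library lay above every IVO library. The means were 23.8 ± 6.72 FPKM (SD, n = 3) and 10.3 ± 2.04 (SD, n = 3), 2.31-fold higher in IVM. The log2FC was -1.11, with an SE of 0.27 and an interval of -1.76 to -0.46 (limma adjusted p = 0.0275). This call lay near the thresholds. Leaving out IVM library 1 gave -0.94 (limma adjusted p = 0.0841), IVM library 3 -1.04 (0.0791), IVO library 2 -1.12 (0.0702) and IVO library 3 -0.97 (0.0741), so that the call held in 2 of 6 such fits. With median-ratio scaling it was -0.80 (limma adjusted p = 0.0595), and that scaling moved the median of all tested genes up by 0.26. The sign was negative under each of the 16 alternatives run.

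Ddit3 (chr10:127124268-127132163, plus strand), which encodes CHOP, a factor that promotes cell death under lasting ER stress, was at 7.26, 10.07 and 9.65 FPKM in IVM and at 8.01, 8.76 and 6.12 in IVO. The groups overlapped. Its log2FC was -0.21, with an interval of -0.75 to 0.32 (limma adjusted p = 0.549), and it turned positive, at 0.08, under median-ratio scaling. The second entry of the symbol, of 105 bases, all of which lie within exons of Ddit3 on the same strand, was at 0, 5.77 and 30.70 FPKM in IVM and listed at 0 in all 3 IVO libraries. Its listed length is below the inferred mean fragment lengths of 200 to 260 bases, and fragments from it cannot be told apart from those of Ddit3. It did not pass (limma adjusted p = 0.135), and passed only when IVM library 1, at 0, was left out (log2FC of -3.87, limma adjusted p = 0.0164).

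Xbp1 (chr11:5470606-5483027, plus strand) was at 0.13, 0 and 0.18 FPKM in IVM and at 0.07, 0 and 0.26 in IVO. These values correspond to about 1.92, 0 and 3.14 fragments in IVM and 1.08, 0 and 4.08 in IVO, near or under the 0.17 to 0.203 FPKM that 3 fragments amount to for its length. No difference in Xbp1 was therefore detectable at this depth, and the gene was not tested. Reads within exons that Xbp1 shares with the antisense gene Ccdc117 also cannot be separated from that gene. The shared exons hold 1526 bases over all 24 annotated Xbp1 transcripts, and their part in the transcript of the listed length was not determined.

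The level order of the members was nearly the same in both groups. By mean FPKM, a level per length, it ran Ern1, Ppp1r15a, Atf4, Eif2ak3, Ddit3, Atf6, Ppp1r15b, Herpud1 and Xbp1 in IVM, and in IVO Eif2ak3 stood before Atf4. In IVM the values of the neighbours Atf4 and Eif2ak3, Ddit3 and Atf6, Atf6 and Ppp1r15b, and Herpud1 and Xbp1 overlapped. In IVO the same held for Eif2ak3 and Atf4, Atf4 and Ddit3, Ddit3 and Atf6, and Herpud1 and Xbp1. The other neighbours had no overlapping values.

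Among the regulators that return eIF2 to its unphosphorylated state, Ppp1r15b lay lower in IVO without passing the test. Ppp1r15b (chr1:133058881-133067539, plus strand), the constitutive subunit that targets phosphatase 1 to eIF2, was at 4.93, 5.26 and 6.37 FPKM in IVM and at 3.14, 2.66 and 4.28 in IVO. Every IVM library lay above every IVO library. The means were 5.52 ± 0.754 FPKM (SD, n = 3) and 3.36 ± 0.832 (SD, n = 3), with a log2FC of -0.59, an interval of -1.14 to -0.04 and a limma adjusted p of 0.113.

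Ppp1r15a (chr7:45172340-45175692, minus strand), the stress-induced subunit GADD34, was at 34.17, 31.22 and 45.54 FPKM in IVM and at 40.22, 54.06 and 46.70 in IVO. One IVM library lay among the IVO libraries. The means were 37.0 ± 7.56 FPKM (SD, n = 3) and 47.0 ± 6.92 (SD, n = 3), with a log2FC of 0.35 and an interval of -0.17 to 0.86 (limma adjusted p = 0.302). Within a library, the ratio of the FPKM of Ppp1r15a to that of Ppp1r15b was 6.93, 5.94 and 7.15 in IVM and 12.8, 20.3 and 10.9 in IVO. The ratios of the 2 groups were apart. This ratio was formed after the values were seen, and a two-sided exact permutation test gave p = 0.1, the smallest that 3 against 3 libraries allow. The ratio of Atf4 to Eif2ak3, formed in the same way, was 2.38, 1.34 and 1.55 in IVM and 1.0, 0.68 and 0.566 in IVO (exact permutation p = 0.1, two-sided).

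Herpud1 (chr8:95113022-95123141, plus strand), an ER membrane protein of the degradation machinery and a target of all 3 arms, was at 0.61, 0.13 and 1.16 FPKM in IVM and at 0.58, 0.31 and 0.18 in IVO. These correspond to about 17.4, 4.42 and 38.6 fragments in IVM and 17.7, 9.4 and 5.55 in IVO. The libraries of a group differed more among themselves than the groups did, and the gene was not tested at the filter used.

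**Figure D2:**
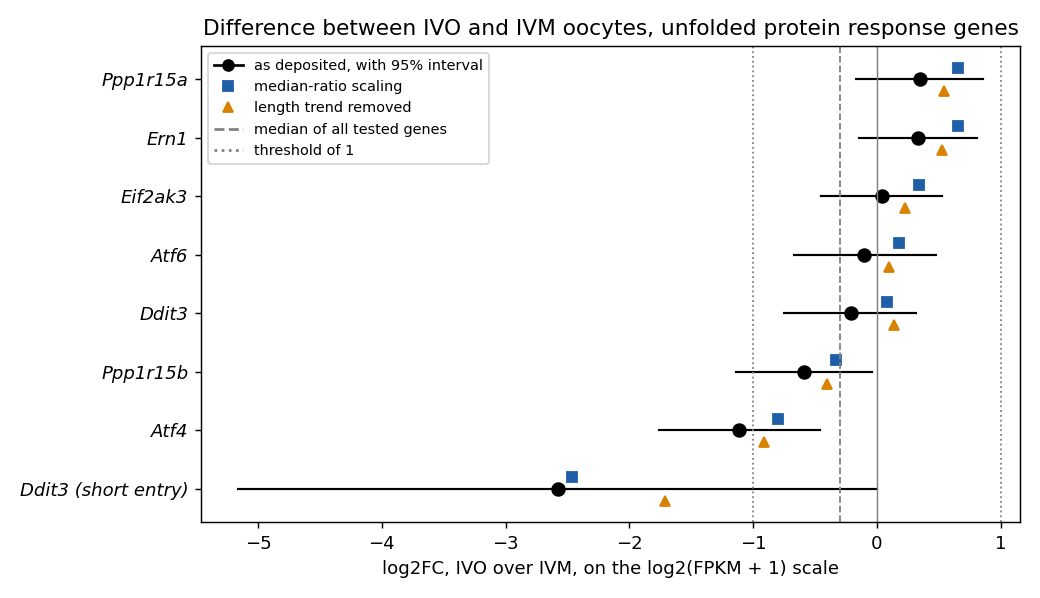
The log2FC (IVO over IVM, on log2(FPKM + 1)) of each tested member row, as circles with 95% intervals on the deposited scale, squares for median-ratio scaling and triangles with the length trend removed, with lines at the median of all tested genes, at 0 and at the threshold of 1 in either direction. On the deposited scale, only the intervals of Atf4, Ppp1r15b and the short Ddit3 entry lie wholly below 0, and Atf4 alone was a DEG.

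The other genes of the pathway were counted in 7 lists of 124 genes, of which 99 were tested. In these, 14 were lower and 2 higher in IVO, 16.2% of those tested beside 18.5% of all genes, with a median log2FC of -0.13 beside -0.30. The lists hold Ensembl genes only, and of all tested Ensembl genes 15.3% were called, with a median log2FC of -0.18. At an unadjusted limma p-value under 0.05, 20 were lower (20.2%) and 7 higher (7.07%), beside 31.4% and 5.56% of all tested genes. By list these were 2 lower and 0 higher among the chaperones, 4 and 1 in degradation, 5 and 1 in the eIF2 axis, 2 and 1 among the ATF4 and CHOP targets, 7 and 2 in translocation, 0 and 0 in ATF6 processing, and 0 and 2 among the death effectors. A fit of Ensembl genes only, the kind of entry the lists hold, counted 3689 of 13154 lower and 957 higher at this p-value. With median-ratio scaling, 8 of the 99 were called lower and 3 higher, beside 11.2% and 2.06% of all tested genes. Among the 146 tested Ensembl genes that the matrix annotates to the KEGG pathway of protein processing in the ER, 19 were lower and 3 higher (15.1%, beside 15.3% of all tested Ensembl genes).

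**Figure D3:**
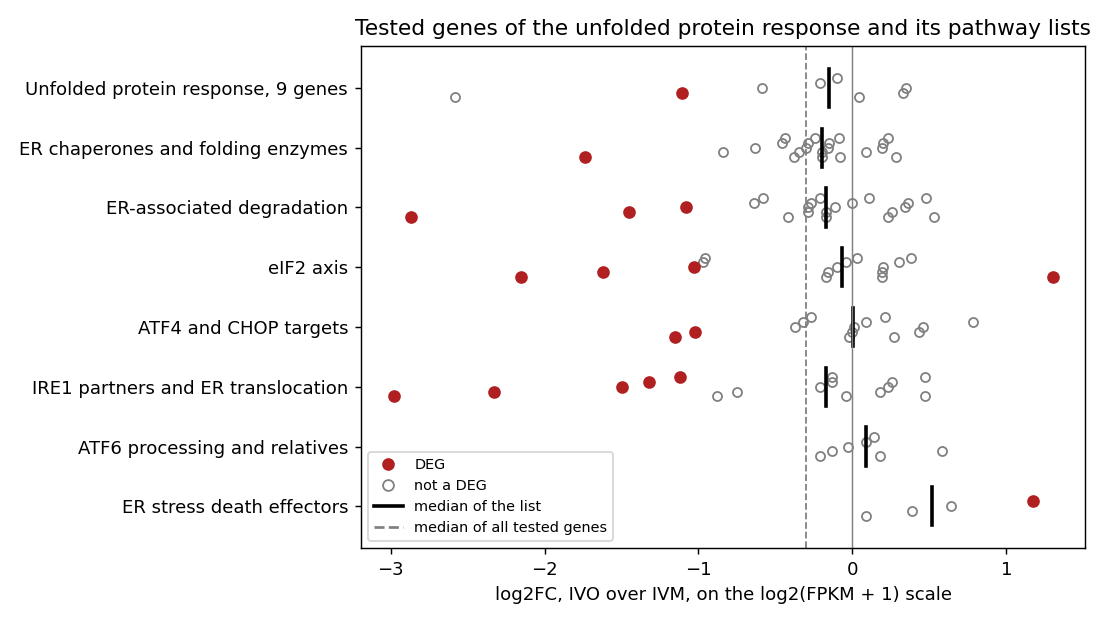
The log2FC (IVO over IVM) of every tested gene in each list, with a bar for the list's median, filled points for DEGs and a dashed line for the median of all tested genes. The lists' medians lie between -0.20 and 0.52, and that of all tested genes at -0.30. The median of the tested Ensembl genes, -0.18, is not drawn.

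In the ER chaperones and folding enzymes, 1 of 21 tested genes was called (4.76%, beside 18.5% of all tested genes and 15.3% of the tested Ensembl genes). Hspa5 encodes BiP, the main ER chaperone, which binds the 3 sensors. It was at 38.89, 32.44 and 42.80 FPKM in IVM and at 23.65, 24.15 and 15.28 in IVO. All IVM libraries lay above all IVO libraries. The log2FC was -0.84, with an SE of 0.24 (limma adjusted p = 0.0429), so it passed the p-value but not the fold threshold. The 1 DEG was Sil1, the exchange factor of BiP, at 54.5 ± 8.56 FPKM in IVM and 15.6 ± 2.01 in IVO (SD, n = 3), with a log2FC of -1.74 (limma adjusted p = 0.00242). The genes of highest level were Ppib, a peptidyl-prolyl isomerase (log2FC of -0.15, limma adjusted p = 0.614), and Creld2 (0.19, 0.541). The log2FC of Ppib turned positive under median-ratio scaling.

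Of the ERSE windows printed, those of Hspa5, Derl3 and Creld2 belong to genes with log2FC of -0.84, -2.87 and 0.19. An ERSE was present in 8 of 19 chaperone genes and 2 of 19 degradation genes with a promoter. Among these 10 genes, 1 was called, Derl3, beside 18.5% of all tested genes and 15.3% of the tested Ensembl genes. The log2FC of the ERSE genes ranged from -2.87 to 0.28. Their median was -0.29, beside -0.30 over all tested genes and -0.18 over the tested Ensembl genes.

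**Figure D4:**
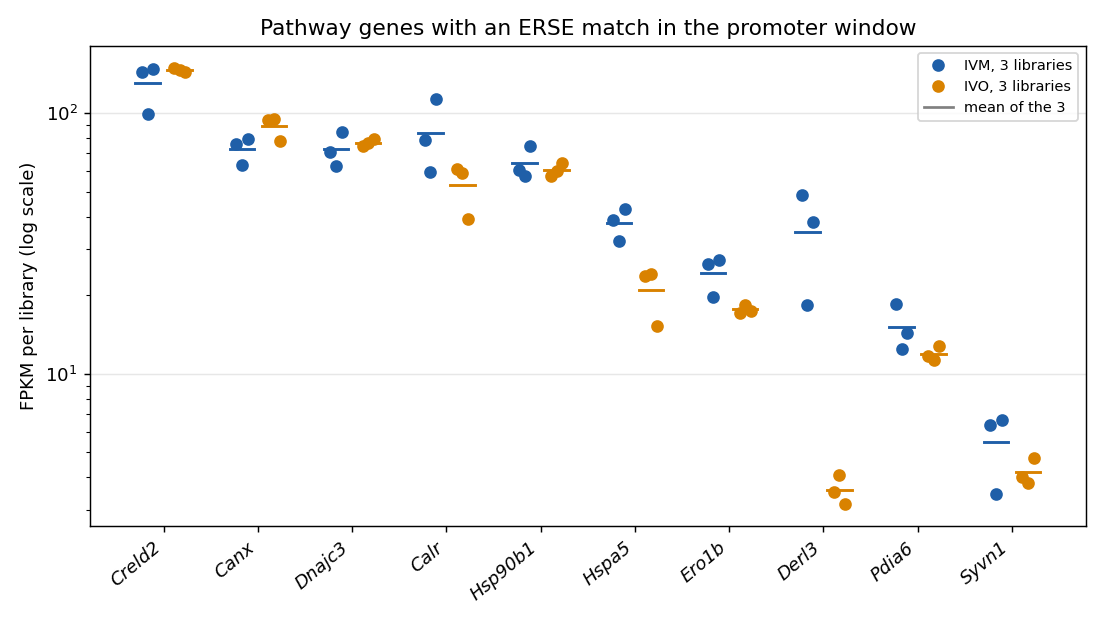
FPKM in each library of the 10 genes whose RefSeq promoter holds an ERSE, on a log axis with a bar for each group mean. Derl3 has the widest gap between the 3 IVM and the 3 IVO libraries.

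In ER-associated degradation, which moves misfolded protein out of the ER to the proteasome, 3 of 21 tested genes were lower in IVO and 0 higher. The share called was 14.3%, beside 18.5% of all tested genes and 15.3% of the tested Ensembl genes. Derl3, a channel component, was at 48.54, 18.32 and 38.25 FPKM in IVM and at 3.51, 4.08 and 3.16 in IVO. The groups were far apart. The level was 9.78-fold higher in IVM, with a log2FC of -2.87 and an SE of 0.36 (limma adjusted p = 0.00277). Faf2, a membrane adaptor for p97, followed at -1.45 (limma adjusted p = 0.00806) and Ube2g2, a ubiquitin-conjugating enzyme, at -1.08 (0.0164). The Ube2g2 call was lost without IVM library 1 (-1.08, limma adjusted p = 0.0512), IVM library 3 (-0.94, 0.0439, under the fold threshold) or IVO library 1 (-0.98, 0.0553). It was also under the fold threshold with median-ratio scaling (-0.78), quantile normalization (-0.58) and the length trend removed (-0.89), as Faf2 was with quantile normalization (-0.94). The genes of highest level were Nploc4, a p97 cofactor (-0.17, limma adjusted p = 0.616, positive under median-ratio scaling), and Herpud2, a relative of Herpud1 (0.26, 0.318), at 121 ± 15.0 FPKM in IVM and 145 ± 10.8 in IVO (SD, n = 3).

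The eIF2 axis held DEGs in both directions, 3 lower and 1 higher of 16 tested. The share called was 25.0%, beside 18.5% of all tested genes and 15.3% of the tested Ensembl genes. Eif2s1 encodes the alpha subunit of eIF2 that PERK phosphorylates. It was at 12.27, 17.06 and 16.16 FPKM in IVM and at 40.13, 45.17 and 31.07 in IVO. All IVO libraries lay above all IVM libraries. The mean was 2.56-fold higher in IVO, with a log2FC of 1.30 and an SE of 0.23 (limma adjusted p = 0.00855). Eif2b3 and Eif2b4, subunits of the exchange factor eIF2B, were lower in IVO, at -1.62 (limma adjusted p = 0.00421) and -2.15 (0.0192). The Eif2b4 call was lost without IVM library 1 (-2.20, limma adjusted p = 0.0541) or IVM library 2 (-1.97, 0.0704). Gcn1, an activator of the amino acid sensor GCN2, was at -1.03 (limma adjusted p = 0.0281), and this call held in 1 of 6 fits with a library left out, the one without IVO library 3. It was lost with median-ratio scaling (-0.77), quantile normalization (-0.56) and the length trend removed (-0.83). Eif2b1, another eIF2B subunit, was at 668 ± 54.7 FPKM in IVM and 767 ± 12.9 in IVO (SD, n = 3) and was not called (0.20, limma adjusted p = 0.342).

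Of 22 targets of ATF4 and CHOP, 14 were tested, 2 were lower and 0 higher in IVO. The share called was 14.3%, beside 18.5% of all tested genes and 15.3% of the tested Ensembl genes. Asns, asparagine synthetase, was at 6.66, 9.57 and 13.75 FPKM in IVM and at 3.45, 3.76 and 4.20 in IVO, with no overlap. Its log2FC was -1.15, with an SE of 0.28 (limma adjusted p = 0.0255). Phgdh, the first enzyme of serine synthesis, was at -1.02 (limma adjusted p = 0.0212). Both calls depended on which libraries were included. The Asns call was lost without IVM library 2 (limma adjusted p = 0.067) or 3 (0.0555) or without IVO library 1 (0.0726) or 2 (0.0699), and the Phgdh call held only without IVO library 1. With median-ratio scaling Asns and Phgdh were under the fold threshold, at -0.87 and -0.77. So they were with quantile normalization (-0.66 and -0.57) and the length trend removed (-0.95 and -0.83). Nupr1, at 0.78 on the deposited scale (limma adjusted p = 0.108), was called higher under the same settings. In this order it was at 1.09 (limma adjusted p = 0.0487), 1.28 (0.0245) and 1.17 (0.0449). With median-ratio scaling and with the length trend removed, the list thus held 0 lower and 1 higher. Cth (0.21, limma adjusted p = 0.59) and Slc3a2 (0.09, 0.781) had the highest levels. The levels of the list were spread widely. The 8 targets that were not tested, among them Trib3, Sesn2, Atf5 and Chac1, were under 1 FPKM in every library, while Mthfd2 had means of 67.3 FPKM in IVM and 90.3 in IVO and Slc7a11 of 35.4 and 34.6, genes named after their values were seen.

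Among the partners of IRE1 and the translocation machinery, which feeds new protein into the ER, 5 of 16 tested genes were lower and 0 higher. The share called was 31.2%, beside 18.5% of all tested genes and 15.3% of the tested Ensembl genes. Ssr4, a subunit of the translocon-associated complex, was at 40.84, 24.78 and 34.74 FPKM in IVM and at 4.86, 1.46 and 4.45 in IVO (log2FC of -2.98, limma adjusted p = 0.00302). Sec61g, a subunit of the channel itself, was at -2.33 (limma adjusted p = 0.00202), and Sec63, which couples BiP to the channel, at -1.50 (0.00676). The signal peptidase genes Spcs1 and Sec11c, named after their values were seen, were at -1.32 (limma adjusted p = 0.0117) and -1.12 (0.00579). The 2 genes of highest level were not called, with Sec62 at -0.13 (limma adjusted p = 0.69) and Sec61b at -0.13 (0.563), both positive under median-ratio scaling. Ssr4 and Sec61g are short, at 800 and 754 bases, and the mean fragment length also differed between the groups. With each library's trend with gene length removed, Ssr4 was at -2.58 and Sec61g at -1.90, and 4 of the 5 genes were still called, Sec11c being under the fold threshold at -0.73. Under median-ratio scaling 3 of the 5 were called, with Spcs1 just short of the fold threshold and Sec11c at -0.80, and under quantile normalization also 3, with Spcs1 at -0.79 and Sec11c at -0.60.

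**Figure D5:**
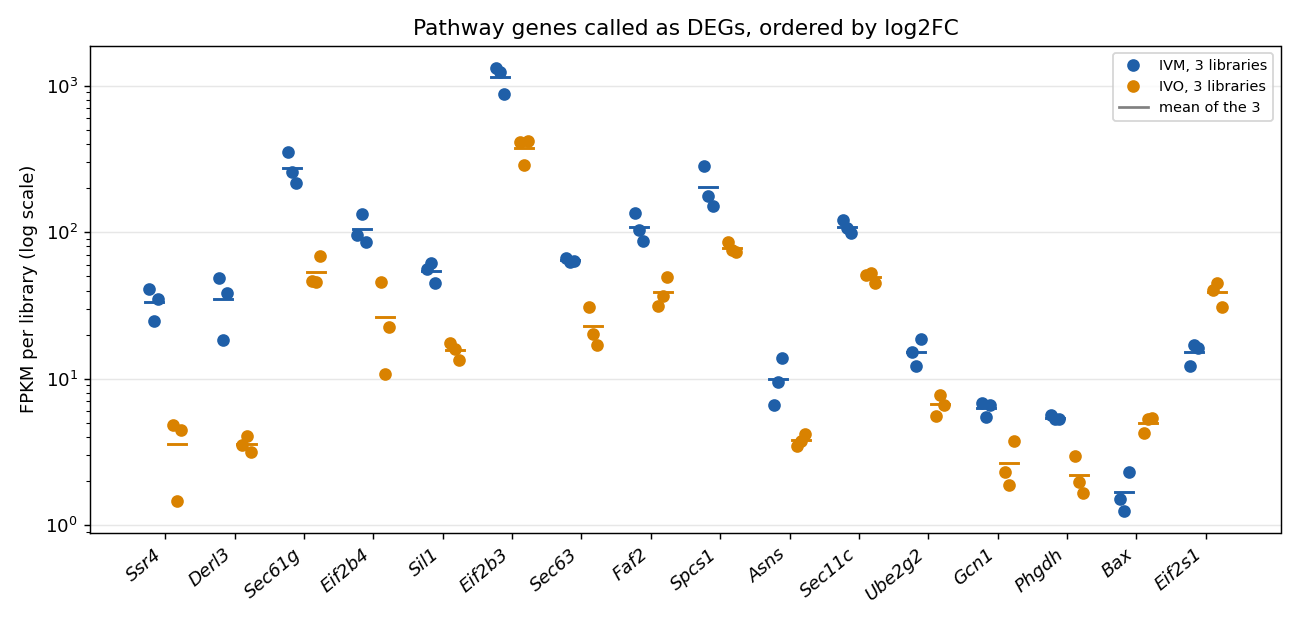
FPKM in each library of the DEGs in the pathway lists, on a log axis with a bar for each group mean. The 3 IVM and 3 IVO points of each gene do not overlap, and only Eif2s1 and Bax lie higher in IVO.

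Of 7 tested genes for ATF6 processing and its relatives, 0 were called by limma, 0 passed the adjusted p-value alone, and 0 had an unadjusted p-value under 0.05. Of all tested genes, 18.5% were called and 23.4% passed the adjusted p-value. At the unadjusted one, 31.4% were lower and 5.56% higher, and in a fit of Ensembl genes only 3689 of 13154 were lower and 957 higher. Mbtps2, the site-2 protease that cuts ATF6, was at 0.14 (limma adjusted p = 0.643), Creb3l4 at 0.09 (0.805) and Atf6b at -0.03 (0.935). Of the effectors of cell death under ER stress, 4 of 9 were tested and 1 was higher in IVO, beside 0.606% of all tested genes called higher. Bax, which permeabilizes the outer mitochondrial membrane, was at 1.50, 1.26 and 2.30 FPKM in IVM and at 4.28, 5.28 and 5.43 in IVO, with no overlap. Its log2FC was 1.17, with an SE of 0.24 (limma adjusted p = 0.0151), and the adjusted p was 0.056 without IVO library 2. Bcap31, an ER membrane protein, was at 0.64 (limma adjusted p = 0.0596), and Itpr1, the ER calcium channel, at 0.09 (0.793). Casp12 was at or below 0.05 FPKM in every library, and Bak1 was listed at 0 in all 6.

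The libraries were of similar depth, at 16400000 to 19500000 fragments in IVM and 17800000 to 18100000 in IVO, as derived from the spacing of low FPKM values. The inferred mean fragment length was 200 to 215 bases in IVM and 250 to 260 in IVO, and its part in the results was not tested beyond the length-trend fit. All 12 oocyte markers were tested. Of these, 5 were lower (41.7%) and 0 higher in IVO by limma, beside 17.9% and 0.606% of all tested genes. The median log2FC of the 12 was -0.92, and the 5 were Zp2 (-3.69), Zp3 (-3.13), Zp1 (-2.43), Figla (-2.03) and Nlrp5 (-1.99). Their summed FPKM was 22000 to 28100 in IVM and 21400 to 23700 in IVO for all 12 markers. Oosp1 and Dppa3, which were not called, had the highest means over the 6 libraries, 12400 and 6460. Of the cumulus and granulosa markers, 12 of 17 were below 1 FPKM in every library and Amh was at 0. Of the other 5, Amhr2, Fshr and Cyp19a1 were at 3.14 to 27.89 FPKM and Kitl at 1.14 to 2.50, with 0 of these called, and Nr5a2 was lower in IVO, at 39.19, 34.40 and 28.32 FPKM in IVM and 13.50, 16.51 and 17.81 in IVO (log2FC of -1.04, limma adjusted p = 0.0139). The summed FPKM of the cumulus and granulosa markers was 71.3 to 91.9 in IVM and 50.5 to 77.3 in IVO, a sum that includes Nr5a2. Below 1 FPKM, Has2, Ptx3 and Tnfaip6 were higher in every IVO library than in any IVM library. Their means were 0.0933, 0.02 and 0.0567 FPKM in IVM and 0.3, 0.113 and 0.427 in IVO. Ptgs2 and Cd44 also had higher means in IVO, and Foxl2, Cyp11a1, Inha, Inhba, Star and Hsd17b1 lower ones, with overlap. None of these was tested by limma. The sum of 4 oviduct markers was at most 1.1, with Pax8 at 0, and that of 6 blood and immune markers 1.73 to 2.45 in IVM and 2.92 to 22.1 in IVO. The upper end of the blood and immune range rests on IVO library 3, as Lyz2 was at 1.04, 1.04 and 15.67 FPKM in IVO. In IVM it was at 0, 0.42 and 0.56. The part of other cells in the results was not tested. In such pools, fewer cells of a type and less RNA per cell cannot be told apart. The library kit does not mark strand, so reads within bases that exons of a member share with an antisense gene cannot be separated from that gene. Over all annotated transcripts, the shared bases were 12 for Ppp1r15a, 145 for Herpud1, 285 for Atf6, 485 for Eif2ak3 and 640 for Ppp1r15b. The listed lengths of these genes are 1952 to 7246 bases. For Ddit3 the shared bases were 3576 with Mars1 and fewer with Gm4189 and Mbd6. Atf4 and Ern1 have no such antisense gene.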

How the data were processed

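RNA of MII oocyte pools was converted to cDNA with the SMART-Seq v4 kit, which primes at poly(A) tails, and sequenced as Nextera XT libraries (paired reads of 150 bases). The authors trimmed reads (SeqPrep, Sickle), mapped them with HISAT2 2.1.0 on GRCm39 and deposited FPKM per gene from RSEM 1.3.3, with DESeq2 1.24.0 also named in their processing notes. The annotation release is not given in the sources used here. Deposited group means were not used.

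FPKM were used as deposited. Genes with a mean of at least 1 FPKM were tested with limma 3.58.1 in R 4.3.3 (lmFit, eBayes with trend) on log2(FPKM + 1), which understates the change of low genes. P-values are two-sided and adjusted by the Benjamini-Hochberg method. A count test was not used. The fit and the depth estimate were tested on simulated data. Depth came from the steps of FPKM values, of which 77.5% to 82.0% per library were whole fragments within 0.15. Fragment numbers and floors cover counting error only. Positions and overlaps came from GRCm39 (GENCODE) and promoters from RefSeq (GRCm38.p6). Tables were made with Python 3.11.15, pandas 2.3.3, numpy 2.4.6 and scipy 1.17.1.

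Groups and replicate numbers came from the labels. Members and lists were chosen with earlier results of these data known. Named were all members, Hspa5, the 2 genes of highest mean FPKM in each list and up to 3 DEGs per list and direction whose groups do not overlap. Others named were chosen after their values were seen. The alternatives were other scalings, pseudocounts and filters, no trend, Ensembl genes only, the replicate number as a block, removal of the length trend (lowess, span 0.3) and each library left out. The KEGG list was added after seeing the data.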

Additional observations from a re-analysis of the deposited data

How the results depend on the processing

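The count of member DEGs was 1 as reported, 0 with median-ratio scaling, quantile normalization, no filter on low values and removal of the length trend with or without the replicate block, and 0 to 1 with a library left out. The count over the pathway lists (16 as reported) was 7 with the replicate block and no length trend, 12 to 15 with a library left out and 11 to 17 under the others except the KEGG genes (22), which are another list. Over all genes, 3480 DEGs became 2068 with the length trend removed and 929 with that and the replicate block, and 2451 to 3343 with a library left out. With Ensembl genes only, fewer genes were tested (13154), and 2056 were DEGs, beside 2008 of the same genes in the fit as reported. Of the DEGs 96.7% were lower in IVO as reported, 84.4% with median-ratio scaling, 59.0% with quantile normalization and 73.1% with the length trend removed, and quantile normalization moved the median of all genes up by 0.47. The cause of these shifts was not tested.

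The sources used here do not say whether a replicate number marks a shared animal or day. The deviations of same-numbered libraries from their group means had correlations of -0.0618, -0.0176 and -0.107. Those of differently numbered libraries ran from -0.0227 to 0.0809. Deviations sum to 0 within each group, so these correlations cannot decide whether libraries were paired. With the replicate block there were 2991 DEGs in all, 1 among the members and 13 in the lists, where Ube2g2 (limma adjusted p = 0.0501), Gcn1 (0.0571) and Phgdh (0.057) were not called.

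Some log2FC that were not called turned positive. With median-ratio scaling, quantile normalization and the length trend removed (with or without the block), in this order, Ddit3 was at 0.08, 0.28 and 0.14, Atf6 at 0.18, 0.40 and 0.10, Ppib at 0.17, 0.34 and 0.19, Nploc4 at 0.15, 0.29 and 0.01, Sec62 at 0.20, 0.33 and 0.06, and Sec61b at 0.20, 0.35 and 0.68. With a library left out, the sign also changed within -0.03 to 0.17 for Eif2ak3, -0.23 to 0.09 for Atf6, -0.35 to 0.06 for Nploc4, -0.06 to 0.18 for Slc3a2, -0.25 to 0.04 for Sec62, -0.04 to 0.22 for Creb3l4 and -0.03 to 0.22 for Itpr1. Depth limits Xbp1, at 0 to about 4.08 fragments per library, and less so Herpud1, at about 4.42 to 38.6. Herpud1 lay above the level of 3 fragments in every library and was left out by the filter on mean FPKM. With no filter on low values, the log2FC was -0.23 for Herpud1 (limma adjusted p = 0.625) and 0.01 for Xbp1 (0.983).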
